A study of Mus musculus with 2 samples.

Results

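Interferon-induced genes were examined, as a list of 48 genes given by name, in splenocytes of mice immunized against glucose-6-phosphate isomerase (GPI), a glycolytic enzyme whose injection causes arthritis in DBA/1 mice. A gene was taken from the probe set that the platform annotation pairs with its symbol alone and, where there were several, from the one with the highest mean log2 signal. By this rule 42 of the 48 genes were measured, of 12393 genes on the array. Isg15 and Tgtp1 lie only on probe sets that carry several gene symbols, and Ddx58, Oas1g, Ifi44 and Xaf1 had no probe set under their symbol in the annotation used here.

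Male DBA/1 mice, aged 6 to 8 weeks, received either 300 μg of recombinant human GPI fused to glutathione S-transferase (GPI-immunized) or 100 μg of glutathione S-transferase alone (control-immunized). Both antigens were given in complete Freund's adjuvant, which holds killed mycobacteria, so the control mice carried the same adjuvant stimulus. Spleens of 3 mice per group were taken at day 10 and their splenocyte RNA was hybridized to 1 Affymetrix mouse GeneChip for each group. Whether the RNA was pooled is given neither in the labels nor in the methods. A single array stands for each group, so nothing could be tested, and every ratio below describes these 2 arrays.

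A GeneChip reads a transcript with a probe set, and the deposited value is its signal (intensity on a linear scale). Ratios are the GPI-immunized over the control-immunized signal without further scaling. Genes were counted where the higher of their 2 signals was at least 50.2, the 50th percentile over both arrays. This filter kept 6961 genes and 34 of the 42 members, of which 32 passed on both arrays and Mx1 and Ifit3 on the control array alone. As a technical yardstick, the log2 ratios of probe sets of one gene had an SD of 0.26 (2538 pairs), a factor of 1.20, which holds no variation between mice. Control probe sets for Bacillus genes, absent from mouse RNA, reached 14.1 at most. The 18 hybridization control probe sets, whose bacterial and phage targets are commonly added in fixed amounts, had a median ratio of 0.873, and 17 of them were lower on the GPI-immunized array.

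Interferons are cytokines that cells release on sensing microbes, and their receptors signal through JAK kinases to STAT transcription factors. Type I interferons activate a complex with STAT2 and IRF9 that binds the interferon-stimulated response element (ISRE), whereas type II interferon mainly acts at the gamma-activated sequence (GAS). The induced genes encode sensors of foreign nucleic acid, proteins that block viral replication, GTPases that attack vacuoles holding microbes, and the machinery that loads peptides onto MHC class I. In the spleen, plasmacytoid dendritic cells are a well-known source of type I interferon.

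The promoters of the list carry this element often. In RefSeq promoter windows (assembly GRCm38.p6, from 250 bases before to 50 after each annotated start), 36 of the 48 genes had a window. The ISRE was searched as GAAANNGAAA on both strands and the GAS as TTCNNNGAA, which reads the same on both. The ISRE letters occurred in 20 of the 36 genes (55.6%), compared with 3.99% of the 27025 genes that have a window. The GAS letters occurred in 11 of the 36 (30.6%), compared with 9.55% of all, 6 of the 36 had both, and the matches of both kinds overlapped in 1 window, that of Bst2. A match describes the letters of the reference genome of C57BL/6J, not binding in DBA/1 spleen. The 250 bases before the start are shown for Rsad2, Bst2 and Ifit3, which had some of the lowest ratios of the list, and for Stat2, which has the same element and a ratio above 1. ISRE matches are in capitals and appear as TTTCNNTTTC where they lie on the opposite strand. Rsad2 lies at chr12:26456453-26456702 (minus strand), Bst2 at chr8:71537473-71537722 (minus strand), Ifit3 at chr19:34583279-34583528 (plus strand) and Stat2 at chr10:128270248-128270497 (plus strand).
Rsad2: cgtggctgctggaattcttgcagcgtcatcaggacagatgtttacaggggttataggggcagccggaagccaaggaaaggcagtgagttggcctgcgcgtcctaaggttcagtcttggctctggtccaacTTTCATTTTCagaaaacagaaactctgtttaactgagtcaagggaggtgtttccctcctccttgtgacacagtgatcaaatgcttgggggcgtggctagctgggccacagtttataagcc
Bst2: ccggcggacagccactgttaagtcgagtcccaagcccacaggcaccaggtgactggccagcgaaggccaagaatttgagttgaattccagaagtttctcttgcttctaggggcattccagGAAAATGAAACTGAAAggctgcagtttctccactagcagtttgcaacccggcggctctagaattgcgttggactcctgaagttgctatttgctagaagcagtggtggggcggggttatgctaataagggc
Ifit3: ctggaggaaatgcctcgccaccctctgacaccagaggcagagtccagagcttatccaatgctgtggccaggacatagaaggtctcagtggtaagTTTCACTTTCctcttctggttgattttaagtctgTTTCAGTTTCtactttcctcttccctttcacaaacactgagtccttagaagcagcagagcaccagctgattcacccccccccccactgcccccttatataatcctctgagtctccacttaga
Stat2: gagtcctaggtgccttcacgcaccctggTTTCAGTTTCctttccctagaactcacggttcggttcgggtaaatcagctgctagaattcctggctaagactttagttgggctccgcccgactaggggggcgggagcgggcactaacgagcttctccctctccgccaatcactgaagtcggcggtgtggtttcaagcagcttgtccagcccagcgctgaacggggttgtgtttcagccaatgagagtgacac

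**Figure D1:**
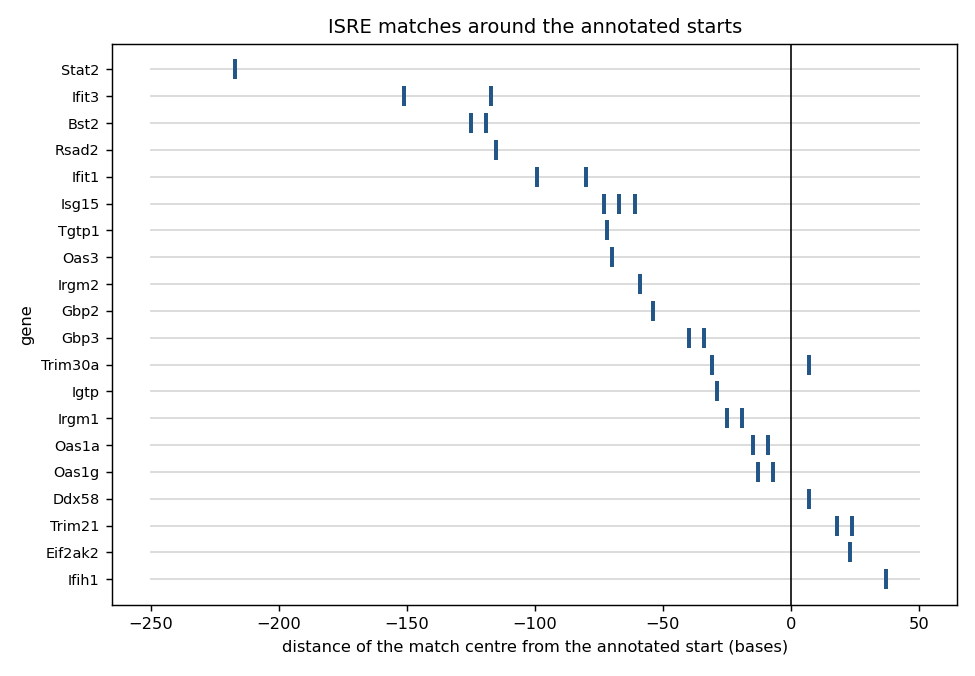
Distance of each ISRE match from the annotated start (horizontal axis, bases) for the 20 genes of the list with a match, 1 line per gene with its promoter window in grey; the matches of Trim30a come from a pair of windows. Stat2, Ifit3, Bst2 and Rsad2 have their first match furthest before the start, while 4 genes have all their matches after it.

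As a list, the interferon-induced genes stayed close to a ratio of 1. Of the 34 members with sufficient signal, 0 were higher by 2-fold or more after GPI immunization, against 2.23% of all genes, and 1, Mx1, was at least 2-fold lower, against 0.445%. With a 1.5-fold limit 1 member, Zbp1, was higher (7.04% of all genes) and 4 were lower (3.23% of all genes), namely Mx1, Bst2, Ifit3 and Rsad2. Of these 4 only 2, Bst2 and Rsad2, passed the filter on both arrays. With the arrays scaled to the hybridization controls 0 of the 33 members that then passed were 1.5-fold lower, against 1.26% of all genes, with Bst2 at 0.672. Mx1, whose ratio was then 0.564, no longer passed the filter. A ratio under 1 was seen in 20 members, or 58.8%, against 42.4% of all genes. With scaling to the hybridization controls it was seen in 9 of 33 members, against 20.5% of all genes. The median log2 ratio was -0.07 over the 34 members and 0.06 over all genes, and 27 members (79.4%) lay within 1.25-fold of 1, against 68.0% of all genes. Among all 42 measured members the median log2 ratio was -0.08. In whole splenocytes, fewer cells of a type and less RNA per cell cannot be told apart.

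**Figure D2:**
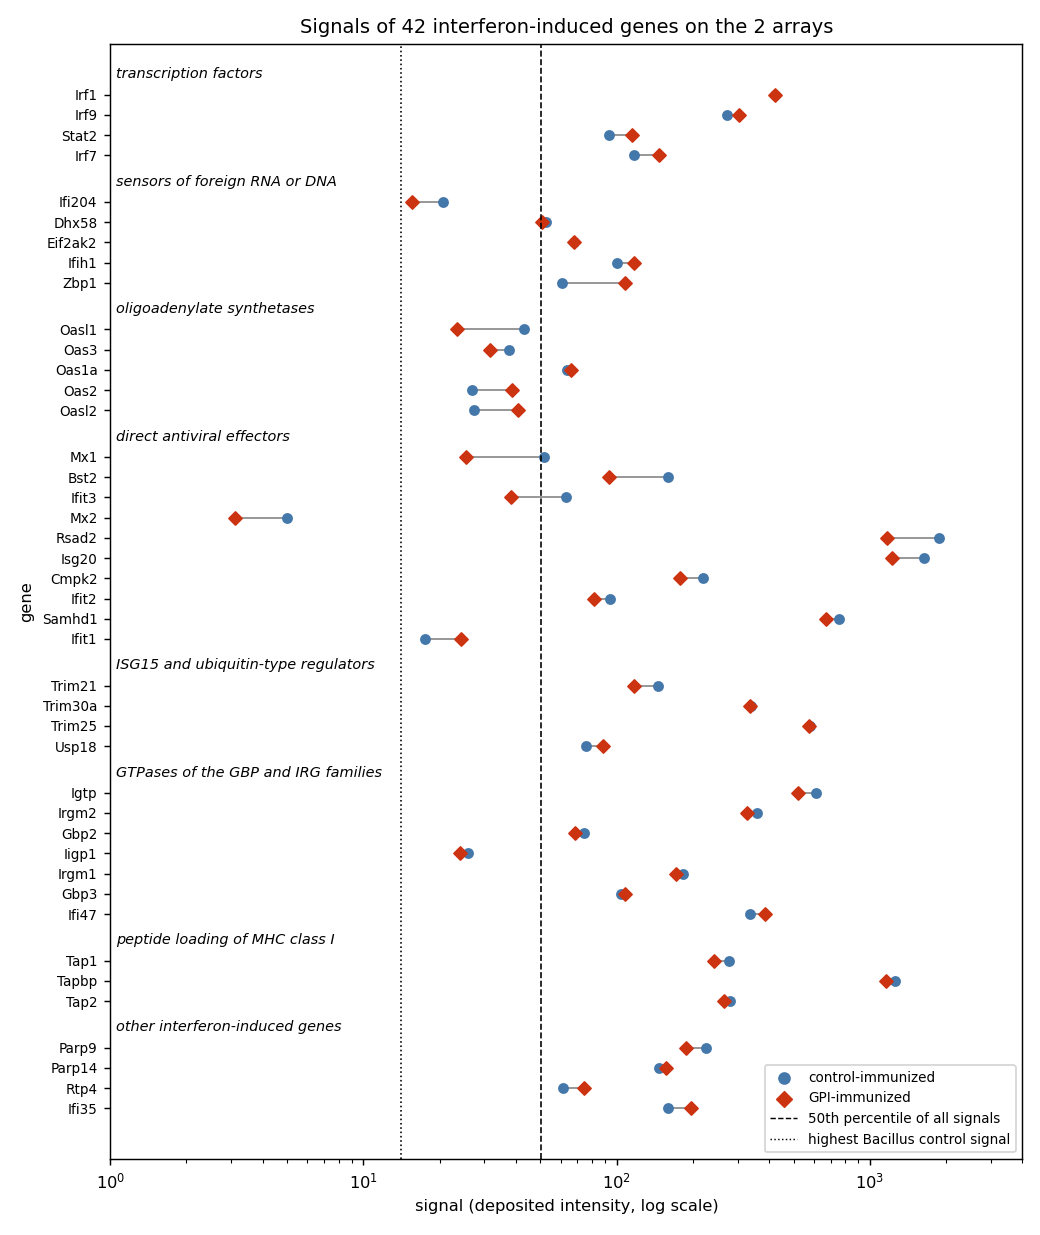
Signal of the 42 measured members (horizontal axis, deposited intensity on a log scale) on the control-immunized array (circles) and the GPI-immunized array (diamonds), 1 array per group, grouped by role. Most pairs lie close together. Among the wider pairs Mx1, Bst2, Ifit3, Rsad2 and the dim Oasl1 are lower on the GPI-immunized array, and Zbp1 and the dim Oasl2 are higher.

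The direct antiviral effectors, taken here as proteins that act on viral replication or release, had the lowest median ratio of the role groups. Eif2ak2 and the oligoadenylate synthetases were placed in other groups. The role groups, like the other lists, were drawn with earlier results of these data known, so the contrast between them is a description only. All 8 with sufficient signal were lower on the GPI-immunized array, against 42.4% of all genes, with a median log2 ratio of -0.55. All 8 were also lower after quantile normalization, loess centring and division by the array median (the 3 distribution-based scalings). With the arrays scaled to the hybridization controls 6 of 7 were below 1, against 20.5% of all genes. All 7 were below the median of all genes, which that scaling raises by 0.20 on the log2 scale. The 6 that passed the filter on both arrays had a median log2 ratio of -0.36. As deposited the 26 members with other roles had 12 ratios under 1 (42.4% of all genes) and 14 above, with a median log2 ratio of 0.01. Of these 26, 0 were at least 1.5-fold lower, against 3.23% of all genes. Their even split depends on the scaling. Of all 34 members, 24 were under 1 with each distribution-based scaling. The share of all genes was not counted there, and their median log2 ratio was then -0.04 to -0.02. With scaling to the hybridization controls 9 of 33 members were under 1, against 20.5% of all genes.

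Rsad2 encodes viperin, a radical SAM enzyme that makes a chain-terminating nucleotide. Its signal was 1870.3 after control and 1165.7 after GPI immunization, a ratio of 0.623. Of the 6961 genes, 2.03% had a ratio as low. Its other probe sets gave signals of 778.3 and 446.4 (ratio 0.574) and of 508.6 and 340.3 (ratio 0.669). All 3 probe sets were therefore lower by more than the 1 SD yardstick. Cmpk2, the mitochondrial nucleotide kinase encoded next to Rsad2, had signals of 219.3 and 177.8, a ratio of 0.811. Its second probe set had a ratio of 0.670, so both were lower.

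Bst2 (tetherin), which holds budding virus particles at the cell surface and is also a surface marker of plasmacytoid dendritic cells, had signals of 159.0 and 93.3. Its ratio was 0.587, as low as in 1.39% of all genes. Mx1, a dynamin-like GTPase against influenza and related viruses, had signals of 51.4 and 25.3, a ratio of 0.492. Its control signal lay just above the filter, and a ratio as low was found in 0.359% of all genes. Many inbred mouse strains carry a defective Mx1 gene, and the allele was not examined here. Ifit3, of the family that binds viral RNA, had signals of 63.0 and 38.4, a ratio of 0.610.

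Its relative Ifit2 had signals of 94.1 and 81.0, a ratio of 0.861, within the yardstick. Ifit1 was dim, at 17.5 and 24.3, and lay on the other side of 1 with a ratio of 1.39. Both IFIT genes with sufficient signal thus lay below 1, and the only one above 1 was under the filter. Isg20, a 3′ exonuclease that degrades RNA, had signals of 1635.7 and 1222.6, a ratio of 0.747. Samhd1, which depletes deoxynucleotides, had signals of 755.1 and 669.5, a ratio of 0.887, and its 4 probe sets ran from 0.738 to 0.918. No ratio is read from Mx2, since its signals of 5.0 and 3.1 were within the Bacillus control range.

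**Figure D3:**
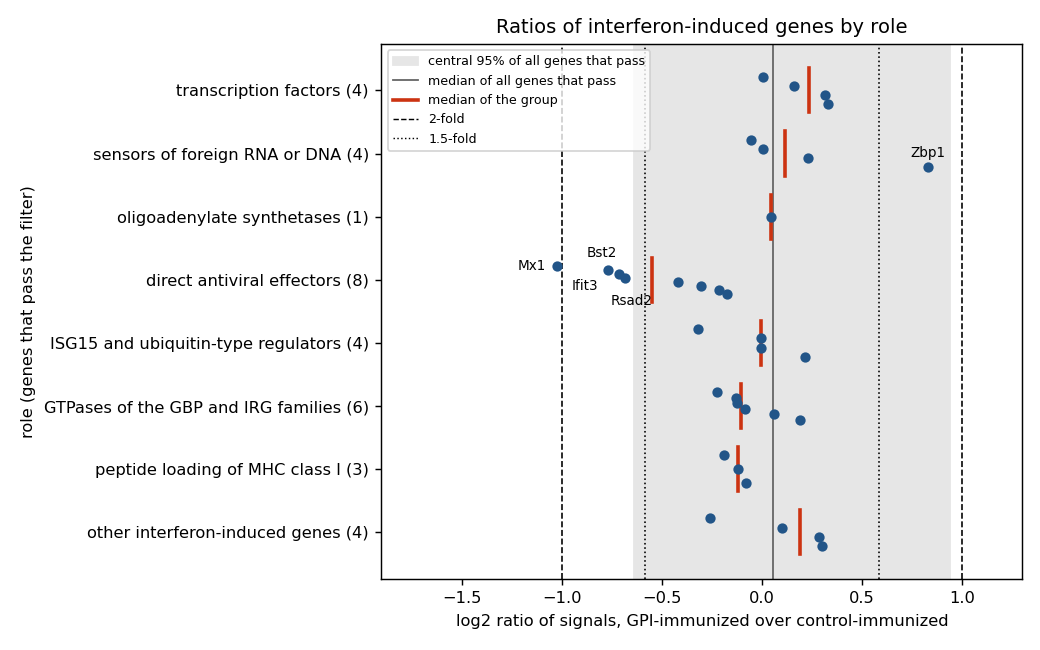
Log2 ratio of signals, GPI over control (horizontal axis), for the 34 members with sufficient signal, each point a gene (1 array in each group), with the median of each role in red, the median of all genes as a grey line and their central 95% (ratios from 0.643 to 1.91) shaded. The 8 antiviral effectors all lie left of 0 with a median of -0.55, and Zbp1, at 0.83, is the furthest to the right.

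The transcription factors of the pathway were at or above 1 as deposited. Irf7, which amplifies type I interferon production, had signals of 116.7 and 146.8, a ratio of 1.26. Irf9, the DNA-binding subunit of the type I complex, had signals of 272.4 and 304.4, a ratio of 1.12. Stat2, its partner, had a ratio of 1.24 (92.8 and 115.2), although its second probe set, at 71.0 and 57.7, had a ratio of 0.813. Irf1, a target of type II interferon, had signals of 421.1 and 422.8. Its ratio of 1.00 lay under 1 with each distribution-based scaling, whereas the 3 others stayed above 1 under every scaling.

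Among the sensors, Zbp1 stood apart. This receptor for nucleic acid in the Z conformation, which can trigger necroptosis, had signals of 60.9 and 108.2, a ratio of 1.78, the highest of the 34 members. A ratio as high was found in 3.28% of all genes, and its dimmer probe set pointed the same way with signals of 24.2 and 37.1. Ifih1 (MDA5), a sensor of long double-stranded RNA, had a ratio of 1.17 from 99.9 and 117.1. Eif2ak2 (PKR), the kinase that halts translation on double-stranded RNA, had a ratio of 1.00 from 67.9 and 68.1 (under 1 with the distribution-based scalings), and Dhx58 (LGP2), a regulator of the RNA helicase sensors, one of 0.964 from 52.5 and 50.6. Ifi204, a DNA sensor of the p200 family, was dim at 20.7 and 15.6.

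Oligoadenylate synthetases make a short messenger that activates RNase L. Only Oas1a had sufficient signal, at 63.8 and 65.8, a ratio of 1.03 that was just under 1 with the 3 distribution-based scalings. The 4 others stayed under the filter on both arrays and did not share a direction. Oasl1 had signals of 42.9 and 23.5, Oas3 37.4 and 31.6, Oas2 26.8 and 38.6, and Oasl2 27.2 and 40.7.

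Of the ISG15 and ubiquitin-type regulators, by the probe sets that represent them, only Trim21 was beyond the yardstick as deposited. With scaling to the hybridization controls only Usp18 was (log2 ratio 0.41), and Trim21 (-0.13) was within it. As deposited 3 of 4 were below 1 (42.4% of all genes), but 1 of 4 with scaling to the hybridization controls (20.5% of all genes). Usp18, the protease that removes ISG15 and restrains the type I receptor, had signals of 75.9 and 88.1, a ratio of 1.16. Trim21, an intracellular antibody receptor, had a ratio of 0.800 from 146.1 and 116.9, and its second probe set one of 0.993. Trim25, the ubiquitin ligase of the RIG-I pathway, had a ratio of 0.998 from 577.8 and 576.4, yet its dimmest probe set, at 47.0 and 77.6, had one of 1.65. Trim30a, of the same protein family, had a ratio of 0.997 from 337.5 and 336.6, and its second probe set, at 108.2 and 131.7, one of 1.22.

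The interferon-inducible GTPases, which target microbe-containing vacuoles and are mainly induced by type II interferon, differed little. Of 6 with sufficient signal, 4 had ratios under 1 as deposited, against 42.4% of all genes. With each distribution-based scaling 5 did, where that share was not counted. With scaling to the hybridization controls 1 did, against 20.5% of all genes. As deposited 0 were past 1.5-fold, against 7.04% of all genes higher and 3.23% lower. Igtp had signals of 609.4 and 521.5, a ratio of 0.856, and Ifi47 signals of 337.1 and 384.6, a ratio of 1.14, the ends of the range. Irgm1 had a ratio of 0.941 (182.9 and 172.2) and Irgm2 of 0.913 (356.8 and 325.8), and these regulate the other GTPases of their family. Gbp3 had a ratio of 1.04 (103.9 and 108.2), just under 1 with the distribution-based scalings. Gbp2 gave 0.918 from signals of 74.5 and 68.4, but its second probe set, at 31.4 and 73.4, gave 2.34, so its probe sets disagree. Iigp1 was dim, at 25.9 and 24.0.

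Peptide loading of MHC class I also differed little. The peptide transporter subunits Tap1 (276.5 and 242.7) and Tap2 (280.7 and 265.5) had ratios of 0.878 and 0.946. Tapasin (Tapbp), which bridges the transporter to MHC class I, had a ratio of 0.919 from 1256.5 and 1154.4, against 1.31 on its dimmer probe set. The 3 ratios were under 1 as deposited, as were 42.4% of all genes, and under 1 with the distribution-based scalings. With scaling to the hybridization controls all 3 were above 1, and 20.5% of all genes were under 1. Of the remaining members, Ifi35 had a ratio of 1.23 (159.1 and 196.1), the receptor transporter Rtp4 1.22 (61.1 and 74.3), and Parp14 1.07 (146.4 and 156.9). Parp9, an ADP-ribosyltransferase family member like Parp14, had a ratio of 0.834 from 225.7 and 188.3.

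**Figure D4:**
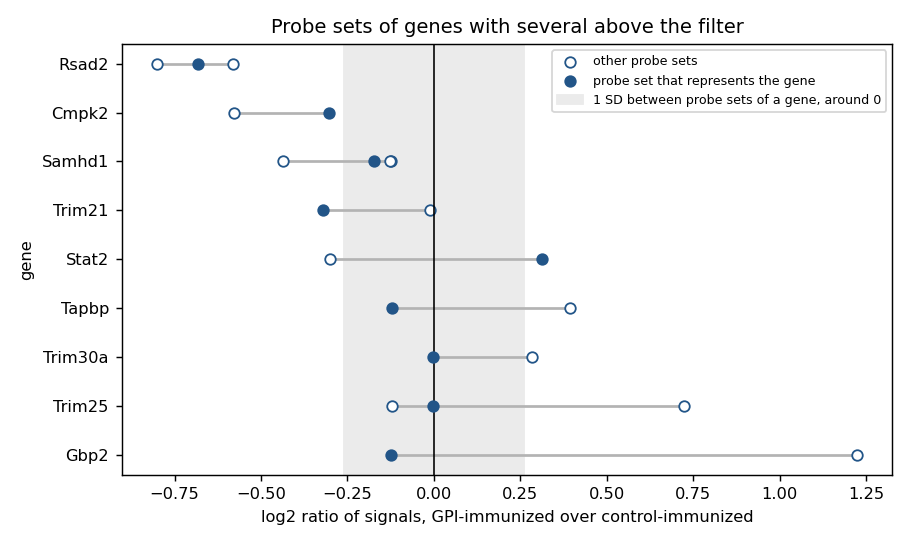
Log2 ratio of each probe set above the filter (horizontal axis) for the 9 members with more than 1, filled for the probe set that represents the gene and open for the others, with 1 SD between probe sets of a gene shaded around 0. Rsad2, Cmpk2, Samhd1 and Trim21 have all their probe sets left of 0, and the 5 others, Gbp2 the widest, span both sides.

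Other genes of the pathway lay around 1 as well. As deposited 7.04% of all genes were at least 1.5-fold higher and 3.23% at least 1.5-fold lower, the shares that belong beside the counts below. The share higher was not counted under the other scalings. A ratio under 1 was seen in 42.4% of all genes as deposited and in 20.5% with scaling to the hybridization controls. Of 13 interferon genes listed 10 were measured, 0 reached the filter and 9 stayed at or under 14.1 on both arrays; the exception, Ifng, had signals of 13.5 and 18.1. Of 8 receptor chains and kinases measured, 3 had ratios above 1 (from 1 to 7 across the scalings) and 0 were past 1.5-fold (1, higher, with scaling to the hybridization controls), from Jak2 (0.809) to the type II receptor chain Ifngr2 (1.35, with 2.81 on its other probe set). Of 9 genes (13 listed) that sense microbes or induce interferon, 1 was past 1.5-fold, the Toll-like receptor adaptor Myd88, at 242.9 and 471.9 (ratio 1.94), and 2 were with scaling to the hybridization controls. Of 9 brakes on signalling (10 listed), 1 was past 1.5-fold, Socs3, at 140.0 and 351.9 (ratio 2.51), and again 2 with that scaling. Socs3 is induced by interleukin-6 through STAT3 too.

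Interferon targets outside the list also lay on both sides of 1. Of 12 type II targets (23 listed) with sufficient signal, 1 was past 1.5-fold higher, against 7.04% of all genes. This was the IgG receptor Fcgr1 (40.4 and 74.6, ratio 1.85), which is also a monocyte marker. Another 1 was past 1.5-fold lower, against 3.23% of all genes, the T cell chemokine Cxcl9 (77.9 and 47.7, ratio 0.612). The median log2 ratio of the 12 was -0.02. Fcgr1 and Cxcl9 each passed the filter only on the array where it was higher, 0 of the 9 type II targets that passed on both arrays were past 1.5-fold, and 0 of the 12 were 1.5-fold lower with scaling to the hybridization controls. The MHC class I light chain B2m had a ratio of 1.00. Of 24 type I targets (43 listed), 15 had ratios under 1, against 42.4% of all genes. With scaling to the hybridization controls 11 did, against 20.5% of all genes. Their median log2 ratio was -0.07 as deposited, and 16 of the 24 lay below the median of all genes under every scaling. As deposited 0 were past 1.5-fold higher (7.04% of all genes) and 1 was lower (3.23%). With the distribution-based scalings 3 to 4 were lower and 0 higher. The shares of all genes past 1.5-fold were not counted there, and the median log2 ratio of all genes was then -0.04 to -0.02. With scaling to the hybridization controls 1 was lower (1.26% of all genes) and 3 were higher. The 1 that was lower as deposited was the nuclear body gene Sp110, at 125.9 and 70.6, with ratios of 0.561 and 0.609 on its probe sets. It was followed by Helz2 (0.682), Pml (0.691), another nuclear body gene, and Ube2l6, the ISG15 conjugating enzyme (0.704).

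Markers of several spleen cell types were set beside the effectors. A ratio under 1 was seen in 42.4% of all genes as deposited and in 20.5% with scaling to the hybridization controls. These shares belong beside the counts of lower markers below, and were not counted under the other scalings. Of 9 markers listed for plasmacytoid dendritic cells, 6 had sufficient signal, all 6 were lower, also under every other scaling, and their median log2 ratio was -0.50, with a summed signal of 4086.0 on the control-immunized and 3170.1 on the GPI-immunized array. Tcf4, Ly6d and Spib, which B cells also use, made up 93.8% of that control sum. The 5 probe sets of Tcf4 above the filter had ratios from 0.789 to 1.04, on both sides of 1. The 3 others summed to 253.1 and 141.8, with ratios of 0.549 for Ccr9, 0.473 for Cox6a2 and 0.643 for Pacsin1. Ccr9 and Cox6a2 passed the filter on the control array alone, and the 4 markers that passed on both arrays had a median log2 ratio of -0.35. The median of the list was also -0.35 without shared probe sets (5 genes) and without the filter (7 genes). The defining marker Siglech was listed but was not measured by the probe set rule. The dim Klk1, at 9.9 and 9.7, was within the Bacillus control range. All 8 B cell markers (summed signal 17032.4 and 12936.5, median log2 ratio -0.42) and 8 of 9 T cell markers (1701.1 and 1287.2, median -0.30) were lower as well, and 6 and 7 of them with scaling to the hybridization controls. Of 6 conventional dendritic cell markers 5 were lower (1507.3 and 1182.2), of 6 natural killer cell markers 4 (899.2 and 761.4) and of 6 erythroid markers 4 (16517.3 and 14750.2), and with scaling to the hybridization controls 4, 3 and 3. The median log2 ratio of the natural killer cell list was -0.21 with the filter and 0 without it (9 genes). All 13 neutrophil markers were higher (34704.6 and 50340.7, median log2 ratio 1.00). Of 9 monocyte and macrophage markers 7 were higher (7369.7 and 9302.1), from 5 to 9 across the scalings, and of 5 plasma cell markers 4 (9061.3 and 10449.7), from 3 to 5. The part of these cell types in the ratios of the effectors was not tested.

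**Figure D5:**
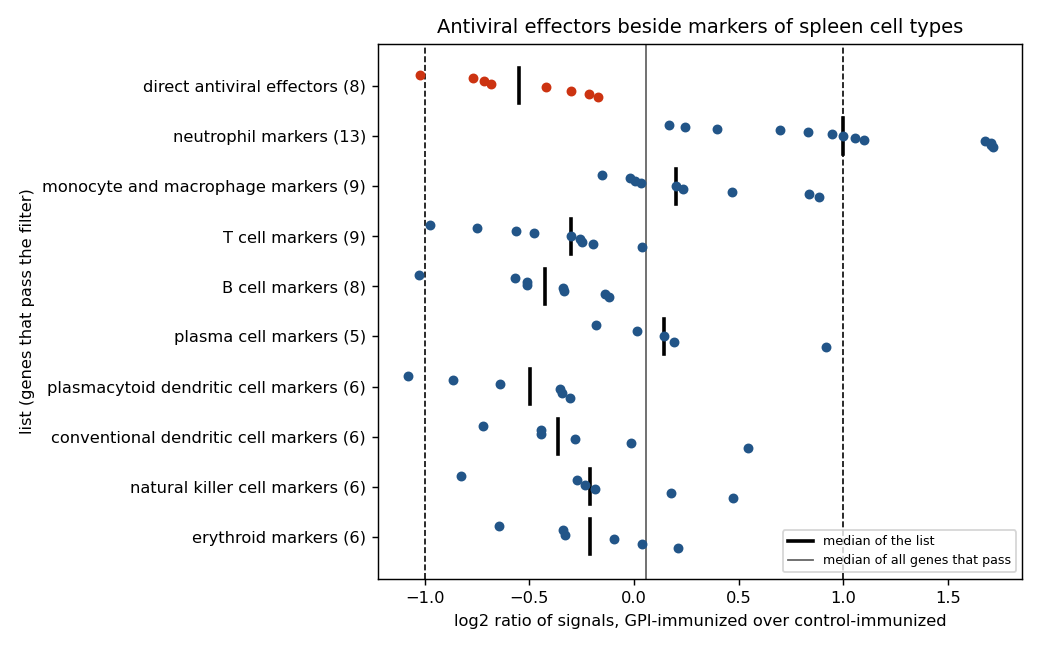
Log2 ratio of signals, GPI over control (horizontal axis), for the 8 antiviral effectors (red) and for marker genes of 9 cell types with sufficient signal, each point a gene (1 array in each group), with list medians as black bars and dashed lines at 2-fold. The range of the effectors (median -0.55) overlaps that of the T cell, B cell, plasma cell, natural killer cell, erythroid and both dendritic cell lists, while the neutrophil markers (median 1.00) lie on the other side of 0.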

How the data were processed

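Affymetrix mouse arrays were read, 1 of GPI-immunized and 1 of control-immunized splenocytes, each assigned from its sample title. The authors deposited 1 signal intensity per probe set on a linear scale, made with software named only as gene expression software. The sources used here do not give the summarization, the scaling between arrays or detection calls. The column medians differ (48.65 for control and 51.8 for GPI). The labels describe labelling by a whole-transcript kit and the methods biotinylated cRNA. Of 22626 probe sets besides 64 control probe sets, 20380 have exactly 1 symbol in the platform annotation, and the gene IDs of all 42 measured members were found in RefSeq under the same symbol. The 3 signals of 0 were set to 0.1 before taking log2.

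The members and lists were chosen with earlier results of these data known. Members were named with both signals where past 1.5-fold, among the 5 highest or lowest, or among the 4 of their role furthest from 1. Up to 4 genes of each other list could be named, and B2m, Ifng, Tcf4, Ly6d, Spib and further members were added after their values were seen. The alternatives were 3 scalings (division by the array median, quantile normalization, loess centring), a floor, other probe set choices, other filters and a 3-fold limit. Scaling to the hybridization controls was chosen after seeing the data. The code that forms and counts ratios was checked on simulated signals with known ratios, which is no test of the ratios reported. With 1 array per group, the number of arrays limits the precision. Python 3.11.15, numpy 2.4.6, pandas 2.3.3, statsmodels 0.14.6 and matplotlib 3.10.9 were used.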

Additional observations from a re-analysis of the deposited data

How the results depend on the processing

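No paired analysis was possible because each group has 1 array. The median log2 ratio of the members (-0.07) was -0.16 after division by the array median, -0.15 after quantile normalization, -0.14 after loess centring and 0.14 with scaling to the hybridization controls, where the medians of all genes were -0.04, -0.03, -0.02 and 0.26. With scaling to the hybridization controls, Zbp1 made 1 member at least 2-fold higher, 0 were at least 2-fold or 1.5-fold lower, 9 of 33 had a ratio under 1, and the median of the antiviral effectors was -0.22 (7 genes, with Mx1, at a ratio of 0.564, below the filter). Averaging all probe sets left 2 members at least 2-fold lower, Mx1 and Tap1, whose other probe sets are dim. With the filter at the 75th percentile 14 members remained, of which 0 were past 2-fold lower, 0 past 1.5-fold higher and 1 past 1.5-fold lower. Of these 14, 11 were under 1, a larger share than the 20 of 34 at the main filter, and the median log2 ratio was -0.13. The share of all genes under 1 at that filter was not counted. At 3-fold 0 were lower. Of single members, 4 crossed a ratio of 1 under each of the 3 distribution-based scalings (Irf1, Eif2ak2, Oas1a and Gbp3), 5 when probe sets were averaged and 10 with the hybridization controls. Raising signals to the 25th percentile and leaving out shared probe sets changed 0 sides. Signals near the filter, such as that of Mx1, limit how well a ratio is known.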

Other observations

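Members with and without ISRE letters in their promoter window were set side by side, a comparison chosen after the values were seen and with no test. The 14 with a match and sufficient signal had a median log2 ratio of -0.11 (SD over genes 0.34, 9 under 1), from 0.587 (Bst2) to 1.24 (Stat2) on the ratio scale. The 12 without a match had a median of -0.06 (SD 0.24, 7 under 1), from 0.747 (Isg20) to 1.26 (Irf7). Mx1 and Zbp1, the members with the lowest and the highest ratio, had no window in the table and are in neither group.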
